A study of Mus musculus with 18 samples.

Results

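The comparison described here sets CD4+ effector T cells from small intestine lamina propria (siLP) against those from the spleen, both wild type, with 3 libraries on each side out of 18 in the series. The 6 libraries are those labelled by organ and as CD45.1+, and every gene that could be tested was compared. The study moved T cells into hosts without Rag, which lack their own T and B cells but keep NK and innate lymphoid cells, and sorted about 500 donor cells per library at week 3 after transfer. The small intestine and spleen groups used most here are of strain C57BL/6 and carry CD45.1, a congenic variant of CD45, the Ptprc gene product. Wild type cells from the colon lamina propria (3 libraries) and CAR-deficient cells of C57BL/6 background from small intestine and spleen (Nr1i3-/-, 3 libraries each) serve for comparison. CAR is the nuclear receptor encoded by Nr1i3, and every group, spleen included, came from a T cell-transferred, Rag-deficient host at the same week. The labels do not tie the 3 libraries of a group to separate animals, so p-values measure only the spread between libraries. The main fit estimated this spread within the groups of all 18 libraries. Any step of cell preparation that differed between the organs cannot be told apart from the organ itself in this design.

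T cells that settle in gut tissue are known for a resident state: they carry the lectin CD69, which pulls the exit receptor S1PR1 off the cell surface, and they keep low levels of the receptors that guide cells through blood and lymph nodes. T cells that have just been triggered through the antigen receptor transcribe immediate early genes, among them AP-1 subunits, the NR4A orphan nuclear receptors and feedback inhibitors of MAP kinase and NF-kappa B signalling. Transcription of many of these genes starts from promoters that bind CREB or NF-kappa B. Cd69, Nr4a1 and several dual specificity phosphatases are named in both descriptions.

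The promoters of 4 genes that were higher in small intestine cells are shown because both kinds of site counted further down occur among them. They are the 250 bases before the RefSeq start in GRCm38.p6, written 5′ to 3′ on the strand of the gene. Capitals mark TGACG on either strand (CGTCA on the other strand), the core of the cAMP response element, and matches to the NF-kappa B consensus called kappa B, also searched on both strands. Nr4a1 is shown at chr15:101266596-101266845 (plus strand), Nfkbid at chr7:30422156-30422405 (plus strand), Fosb at chr7:19310046-19310295 (minus strand) and Rel at chr11:23770970-23771219 (minus strand).
Nr4a1: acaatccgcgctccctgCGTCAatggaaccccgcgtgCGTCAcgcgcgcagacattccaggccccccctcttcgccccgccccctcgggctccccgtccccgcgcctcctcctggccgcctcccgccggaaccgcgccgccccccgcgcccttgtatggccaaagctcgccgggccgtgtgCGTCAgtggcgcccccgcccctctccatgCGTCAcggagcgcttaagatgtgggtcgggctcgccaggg
Nfkbid: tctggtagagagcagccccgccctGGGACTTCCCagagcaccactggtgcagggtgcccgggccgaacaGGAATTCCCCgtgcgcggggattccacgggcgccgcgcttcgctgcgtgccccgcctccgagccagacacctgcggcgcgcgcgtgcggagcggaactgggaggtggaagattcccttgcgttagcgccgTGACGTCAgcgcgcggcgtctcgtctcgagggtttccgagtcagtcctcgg
Fosb: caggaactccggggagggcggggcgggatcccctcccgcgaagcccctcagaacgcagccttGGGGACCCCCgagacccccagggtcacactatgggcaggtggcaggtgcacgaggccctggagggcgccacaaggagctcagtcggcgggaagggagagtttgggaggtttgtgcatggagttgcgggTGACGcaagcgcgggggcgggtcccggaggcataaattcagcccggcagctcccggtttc
Rel: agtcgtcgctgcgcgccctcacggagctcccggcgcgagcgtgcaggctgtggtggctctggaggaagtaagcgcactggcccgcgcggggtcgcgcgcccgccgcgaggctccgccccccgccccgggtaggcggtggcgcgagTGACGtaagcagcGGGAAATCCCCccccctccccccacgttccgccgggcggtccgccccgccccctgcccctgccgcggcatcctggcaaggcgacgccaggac
The Nr4a1 window holds 4 TGACG sites and no kappa B match. RefSeq gives 3 windows for Nfkbid, of which the other 2 hold neither kind of match and are not shown. The Nfkbid window shown holds 2 TGACG sites that overlap as the palindrome TGACGTCA, with 2 kappa B matches upstream of them. Fosb has 1 of each kind, and Rel has 1 TGACG next to 2 overlapping kappa B matches.

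In the wild type cells, 28 of 14876 genes tested were higher in small intestine than in spleen and 0 were lower (edgeR quasi-likelihood test, Benjamini-Hochberg adjusted p under 0.05), which is 0.188% of the genes tested for the higher ones. At an unadjusted p under 0.05, 473 genes (3.18%) were higher and 203 (1.36%) lower, DESeq2 called 11 genes lower and limma's voom with quality weights 8. The 28 differ from spleen by 2.9 to 98.9 times in mean CPM, a count scaled to a common library size, and in none of them do the 3 small intestine libraries overlap the 3 spleen libraries. Among all genes tested, 7.37% had small intestine libraries wholly above spleen libraries and 5.06% had them wholly below. Libraries a, b and c of each group are named by the order of their columns. Small intestine library a was the highest of its group for 21 of the 28 genes and library c for 7, while library b was the lowest for 22.

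The count rests on few libraries. Without spleen library a or c it was 3, without small intestine c 7, without small intestine a 10, and without spleen b or small intestine b 15, and it was 0 (551 genes at an unadjusted p under 0.05) when the spread was estimated from the compared libraries alone. The log2 fold changes of all 28 stayed above 0 in each of these fits.

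Nr4a1 (ENSMUSG00000023034, chr15:101254269-101274795, plus strand), which encodes the orphan nuclear receptor NUR77 and is switched on within minutes of antigen receptor signalling, was among the 3 called genes with the smallest adjusted p. Its level was 174, 130.3 and 234 CPM in small intestine libraries a, b and c, against 2.99, 6.01 and 1.43 CPM in spleen. The lowest small intestine library thus lay far above the highest spleen library. The log2 fold change was 5.69 ± 0.68 (SE, n = 3 each, edgeR adjusted p = 0.00177). Klf4 and Klf6, zinc finger factors of the Kruppel family, were counted in the same list of NR4A, EGR and related early factors. Klf4 had 21.9, 11.4 and 14 CPM in small intestine, against 1.38, 2.17 and 1.26 CPM in spleen, a log2 fold change of 3.29 ± 0.57 (edgeR adjusted p = 0.0309). Klf6 had 1019, 815 and 734 CPM in small intestine, against 77.4, 228 and 156 CPM in spleen (2.48 ± 0.42, edgeR adjusted p = 0.0298). Both sets of libraries stayed apart, with spleen b the highest of its group for each of these 3 genes. In this list 3 of 13 members were higher and 0 lower, all 13 log2 fold changes lay above 0, and their median was 1.79, beside 0.00 and 50.1% above 0 over all genes tested. This list and those below were chosen with earlier results of these data known. Their counts and medians are therefore descriptions and not tests. Egr1, a zinc finger factor of the same early wave, did not pass with 171, 134 and 135 CPM in small intestine, against 18.1, 51.4 and 17.3 CPM in spleen (log2 fold change 2.34 ± 0.49, edgeR adjusted p = 0.0804).

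Among the AP-1 genes, whose products dimerise on DNA, 2 of 13 members were higher and the median log2 fold change was 1.79. Fosb (chr7:19302696-19310051, minus strand) had 326, 118 and 145 CPM in small intestine, against 14, 18.1 and 6.45 CPM in spleen (3.93 ± 0.57, edgeR adjusted p = 0.00724). Atf3, a stress-induced member of the ATF/CREB family, had 41, 9.06 and 25.9 CPM in small intestine, against 0, 0.777 and 0 CPM in spleen. Only spleen library b held reads of Atf3, 19 counts in all. The fitted log2 fold change was 6.56 ± 1.23 (edgeR adjusted p = 0.045), and it was 12.13 without spleen library b. Fos, the partner of JUN, did not pass, although its libraries were apart, with 1129, 1018 and 932 CPM in small intestine, against 111, 419.6 and 119 CPM in spleen (2.25 ± 0.58, edgeR adjusted p = 0.254). Junb ranged from 347 to 1491 CPM in small intestine and from 83.6 to 442 CPM in spleen, so its libraries overlapped (1.99 ± 0.86, edgeR adjusted p = 1).

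NF-kappa B genes were represented by a subunit and by regulators: 4 of 18 members of the list were higher, 16 had a log2 fold change above 0 and the median was 0.58. Tnfaip3 (chr10:19000910-19015657, minus strand) encodes A20, an enzyme that edits ubiquitin chains and shuts down the pathway. It had 1038, 442 and 569 CPM in small intestine, against 87.2, 89.7 and 61.8 CPM in spleen (3.10 ± 0.36, edgeR adjusted p = 0.00177). Nfkbid and Nfkbiz encode nuclear proteins of the I kappa B family. Nfkbid had 136, 109 and 133 CPM in small intestine, against 17.9, 22.1 and 15 CPM in spleen (2.78 ± 0.48, edgeR adjusted p = 0.0309). Nfkbiz had 129, 120.1 and 148 CPM in small intestine, against 42.2, 36.4 and 28.7 CPM in spleen (1.89 ± 0.27, edgeR adjusted p = 0.00724). The 3 small intestine libraries were close to each other for both Nfkbid and Nfkbiz. Rel, the c-Rel subunit, had 136, 101 and 68.2 CPM in small intestine, against 32.9, 25.6 and 23.4 CPM in spleen (1.90 ± 0.36, edgeR adjusted p = 0.0483).

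The list with the highest median, 2.14, was that of dual specificity phosphatases and other signalling feedback genes. All 16 of its tested members had a log2 fold change above 0, and 3 of the 16 were higher. Rgs2, which speeds the shut-off of G protein alpha subunits, had 591, 187 and 235 CPM in small intestine, against 2.3, 43.7 and 18.1 CPM in spleen (3.98 ± 0.73, edgeR adjusted p = 0.0417). Dusp5, a nuclear phosphatase of ERK, had 154, 113 and 180.1 CPM in small intestine, against 27.5, 29.3 and 33.1 CPM in spleen (2.31 ± 0.37, edgeR adjusted p = 0.0207). Gem, a small GTPase of the RGK group, was at 265, 241 and 184 CPM in small intestine, against 24.3, 68.3 and 40.1 CPM in spleen (2.38 ± 0.41, edgeR adjusted p = 0.0309). Spleen libraries differed among themselves far more for Rgs2 than for Dusp5.

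**Figure D1:**
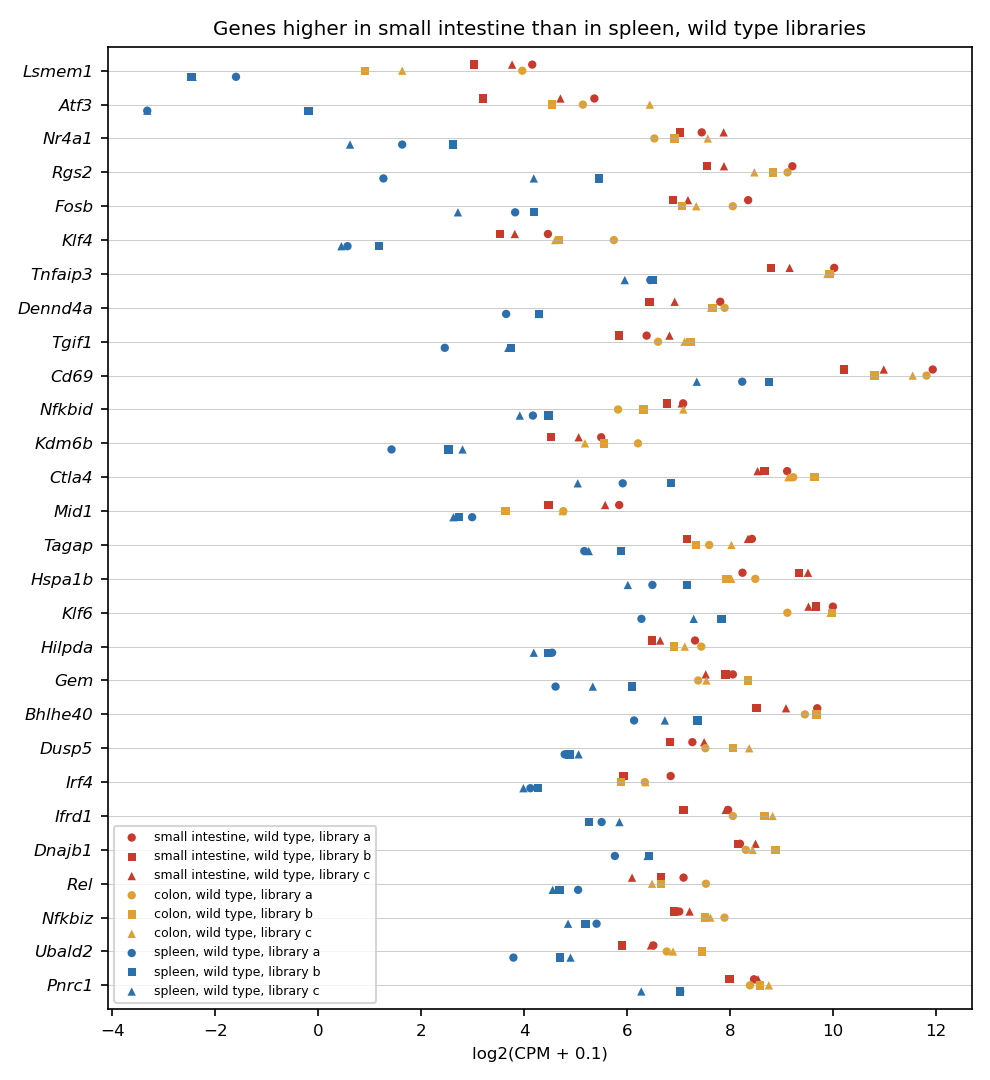
Level of each of the 28 genes that were higher in small intestine than in spleen, as log2(CPM + 0.1) on the horizontal axis, 1 point per library, with circles, squares and triangles for libraries a, b and c. Small intestine points (red) lie to the right of all spleen points (blue) in every row, and so do the colon points (orange), of which 1 or 2 fall between the organs in the rows of Nr4a1, Klf6, Nfkbid, Gem, Mid1, Hspa1b, Lsmem1 and Irf4.

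The residency list holds genes reported to be higher in resident T cells. Of its 29 tested members 6 were higher and 0 lower, 26 had a log2 fold change above 0, and the median was 1.23. Cd69 (chr6:129267325-129275436, minus strand) had 3907, 1188 and 2021 CPM in small intestine, against 301, 433 and 163 CPM in spleen (2.99 ± 0.52, edgeR adjusted p = 0.0309). Small intestine b, the lowest of its group, was still above every spleen library. Hilpda, which encodes a lipid droplet protein that blocks fat breakdown, had the smallest p of all genes, with 159, 89.3 and 99.5 CPM in small intestine, against 23.2, 21.8 and 18.1 CPM in spleen (2.46 ± 0.27, edgeR adjusted p = 0.00177). Bhlhe40, a repressor that T helper cells need for cytokine production, had 826, 365 and 542 CPM in small intestine, against 70.1, 164 and 106 CPM in spleen (2.35 ± 0.34, edgeR adjusted p = 0.00724). Ctla4, the inhibitory receptor for CD80 and CD86, had 550.5, 405 and 369.9 CPM in small intestine, against 60.1, 115 and 32.8 CPM in spleen (2.67 ± 0.51, edgeR adjusted p = 0.0483). Nr4a1 and Rgs2 complete the 6, and they also stand in the lists above, so these lists are not separate counts.

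Other genes of the residency description did not pass. Itgae, which encodes the alpha E integrin CD103, had 17.6, 4.22 and 36 CPM in small intestine, against 1.29, 1.02 and 18 CPM in spleen (1.51 ± 1.11, edgeR adjusted p = 1). It was higher in small intestine within each column ending, but library c was the highest in both organs. Cxcr6, a chemokine receptor of tissue T cells, had 623, 493 and 579 CPM in small intestine, against 818, 823 and 625 CPM in spleen (-0.42 ± 0.34, edgeR adjusted p = 1). Its spleen libraries lay above its small intestine libraries.

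No gene of the recirculation list passed in either direction. Of its 26 members 22 had a log2 fold change below 0, and the median was -0.29. In 1 member the small intestine libraries lay wholly above and in 1 wholly below the spleen libraries. S1pr1, the receptor for egress into lymph, had 46.2, 38.6 and 109 CPM in small intestine, against 53.3, 58.7 and 123 CPM in spleen (-0.28 ± 0.65, edgeR adjusted p = 1). The organs overlapped for it, and Ccr7, the lymph node homing receptor, was low in both, at 17.4, 1.34 and 4.95 CPM in small intestine, against 0.368, 6.05 and 28.7 CPM in spleen. Tcf7, which encodes the memory factor TCF-1, had 48.5, 36.8 and 119 CPM in small intestine, against 61.6, 79.4 and 248 CPM in spleen (-0.93 ± 0.58, edgeR adjusted p = 1). Each small intestine library was below the spleen library of its column ending, although the groups overlapped. Klf2, the factor that drives S1pr1 transcription, lay above 0 without passing, with 372, 182 and 413 CPM in small intestine, against 89.5, 89.9 and 179 CPM in spleen (1.43 ± 0.50, edgeR adjusted p = 0.889).

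Gut homing genes showed no call and a median log2 fold change of 0.05 over 19 members. Ccr9, the receptor for the small intestine chemokine CCL25, had 3.02, 35.2 and 42.8 CPM in small intestine, against 7.19, 1.76 and 5.56 CPM in spleen (2.48 ± 1.09, edgeR adjusted p = 1). Small intestine libraries b and c were high, while library a fell within the range of spleen. Itga4 and Itgb7 encode the chains of the integrin that binds gut vessels. Itga4 had 320.1, 279 and 259 CPM in small intestine, against 275, 279 and 239.6 CPM in spleen (0.11 ± 0.25, edgeR adjusted p = 1). Itgb7 had 63.2, 358 and 337 CPM in small intestine, against 88.1, 367 and 358 CPM in spleen (-0.10 ± 0.69, edgeR adjusted p = 1). In both organs library a was the low one for Itgb7.

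**Figure D2:**
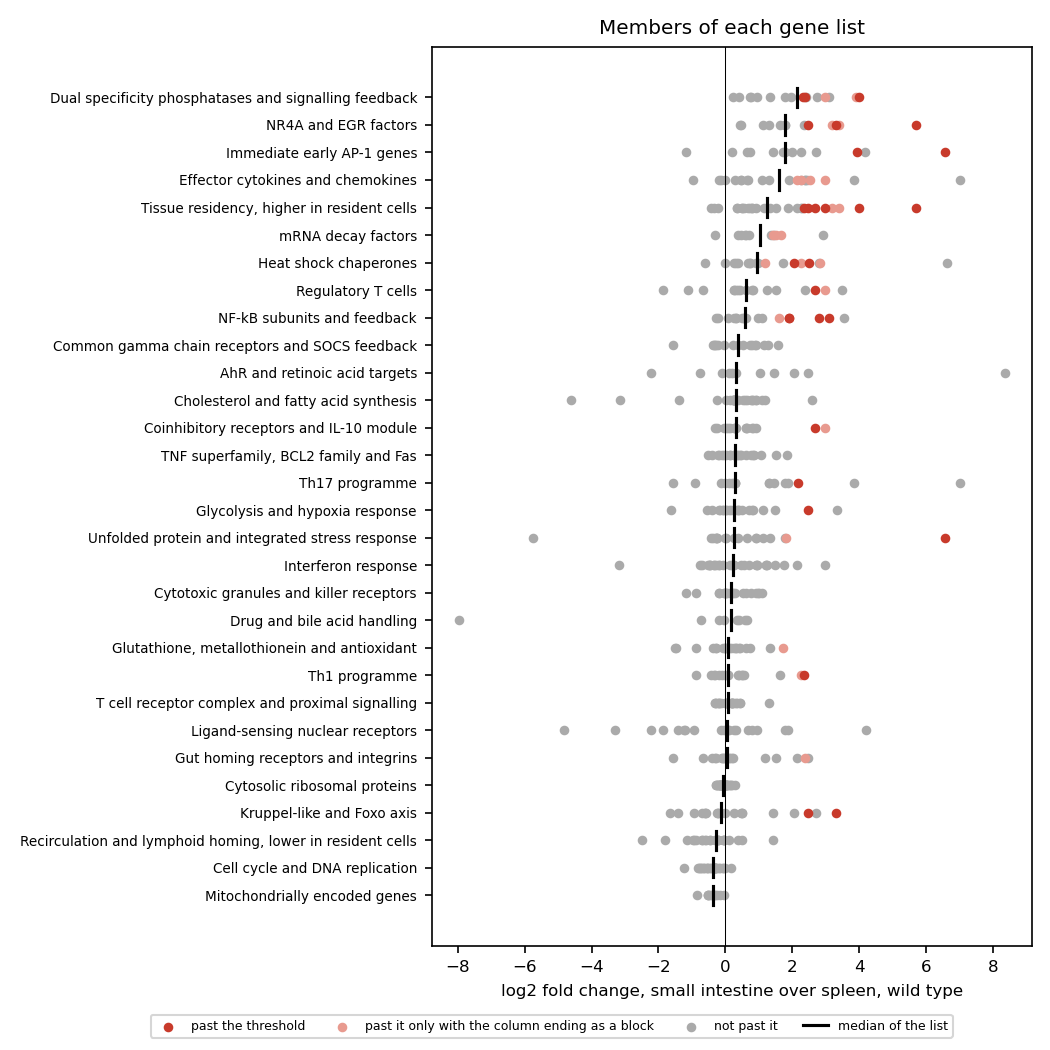
Log2 fold change of small intestine over spleen in wild type cells (horizontal axis) for each tested member of 30 gene lists, 1 row per list and 1 point per gene, with a black bar at the median of the list. Red points passed the threshold, pale red points passed it only when the column ending was a block, and no point left of 0 passed.

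The other calls fell into smaller groups. Hspa1b and Dnajb1, an inducible HSP70 and its co-chaperone, were the 2 higher members of 18 heat shock genes (median 0.95, 16 above 0). Hspa1b had 302, 648 and 729 CPM in small intestine, against 89.7, 143 and 64.4 CPM in spleen (2.50 ± 0.46, edgeR adjusted p = 0.0417), but reads can be split between it and the near-identical Hspa1a. Dnajb1 had 292, 284 and 359.8 CPM in small intestine, against 54.1, 85.8 and 84 CPM in spleen (2.06 ± 0.39, edgeR adjusted p = 0.0483). Irf4, a factor that scales with antigen receptor signal strength, had 115, 60.7 and 59.5 CPM in small intestine, against 17.3, 19.1 and 15.7 CPM in spleen (2.17 ± 0.42, edgeR adjusted p = 0.0483). Its spleen libraries were nearly alike. Kdm6b, the histone demethylase of the repressive H3K27 mark, had 45, 22.8 and 33.2 CPM in small intestine, against 2.58, 5.68 and 6.87 CPM in spleen (2.74 ± 0.51, edgeR adjusted p = 0.045). Tgif1, a homeobox repressor in TGF-beta signalling, had 83, 56.9 and 113 CPM in small intestine, against 5.39, 13.3 and 12.8 CPM in spleen (3.00 ± 0.50, edgeR adjusted p = 0.029).

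Tagap, a GTPase activating protein of activated T cells, had 343, 143 and 325 CPM in small intestine, against 35.8, 58.8 and 38 CPM in spleen (2.61 ± 0.35, edgeR adjusted p = 0.00613). Dennd4a, an exchange factor for Rab GTPases, had 224, 86.2 and 121 CPM in small intestine, against 12.4, 19.4 and 19.3 CPM in spleen (3.07 ± 0.43, edgeR adjusted p = 0.00671). For both genes small intestine library b was the lowest of its group and still above every spleen library. Lsmem1 and Ifrd1 are neighbours on the minus strand of chromosome 12, Lsmem1 at chr12:40175493-40199490 and Ifrd1, a transcriptional co-regulator, at chr12:40201567-40248504. Lsmem1 had 17.7, 8.01 and 13.5 CPM in small intestine, against 0.23, 0.0818 and 0.0843 CPM in spleen. Its spleen libraries held 9 counts together, and its fitted log2 fold change was 6.58 ± 1.22 (edgeR adjusted p = 0.0417). Ifrd1 had 249, 136 and 241 CPM in small intestine, against 45.2, 38.1 and 57.5 CPM in spleen (2.15 ± 0.40, edgeR adjusted p = 0.0417). The remaining 3 of the 28 were Mid1, a microtubule-bound ubiquitin ligase (2.63 ± 0.47), Ubald2 (1.78 ± 0.31) and Pnrc1, a nuclear receptor co-regulator (1.54 ± 0.28).

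Promoter windows were found for 23 of the 28 genes and for 10543 of 14865 tested symbols. TGACG occurred on either strand in a window of 12 of the 23 genes (52.2%), against 28.9% of all tested genes with a window. The kappa B consensus occurred in 8 of the 23 (34.8%), against 10.2% of all. Both were found for Hilpda, Tnfaip3, Fosb, Nfkbid and Rel. The AP-1 site TGANTCA was found for Hilpda and Tnfaip3 (8.7%, against 5.66% of all), the full element TGACGTCA, which contains TGACG, for Nfkbid (4.35%, against 2.89%), and the CArG box, the serum response element, for Dusp5 (4.35%, against 1.44%). The heat shock element, searched as alternating GAA, TTC and GAA units with 2 free bases between them, occurred in 0 of the 23 and in 0.417% of all. Each was searched on both strands in the same 250 bases, and the shares are descriptions.

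Libraries with the same column ending deviated together. Between wild type small intestine and spleen the 3 same-ending pairs correlated at 0.227 to 0.249 in their deviations from the group means, and the 6 other pairs at -0.201 to 0.027. The receptor beta V segments were alike in libraries a and b of both organs and differed between the c libraries. Trbv26 held 70% of the beta V counts in small intestine a (exact 95% interval 69.1% to 70.8%, counting error only) and 52.2% in small intestine b, against 72.9% in spleen a and 57.9% in spleen b. In the c libraries the leading segment was Trbv31 with 24% in small intestine, against Trbv12-2 with 13.5% in spleen. The numbers 1 to 3 of the labels could not be tied to the columns, so what the ending stands for is not known.

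With the ending as a block, 61 genes were higher (0.41%) and 3 lower (0.0202%), and the 61 include all 28. The genes named below from the additional ones were chosen after their values were seen, except Il10, Ifng, Btg2, Cxcr4 and Hba-a2. The cytokine list gained 4 of its 22 members, with a median log2 fold change of 1.60 over the list without the block. Ifng, the signature cytokine of Th1 cells, had 4446, 1387 and 1208 CPM in small intestine, against 618, 601 and 242 CPM in spleen. The log2 fold change was 2.27 ± 0.65, with an edgeR adjusted p of 0.471 without and 0.00863 with the block. Il10, which restrains inflammation, had 574, 251 and 33.7 CPM in small intestine, against 60.4, 42.1 and 6.28 CPM in spleen (edgeR adjusted p = 0.798 without and 0.0414 with the block). The organs overlapped for Il10, since small intestine c was below spleen a and b, but each small intestine library was above its spleen counterpart. The chemokine genes Ccl3 and Ccl4 showed a like pattern across the endings. Ccl3 had 4311, 872 and 407 CPM in small intestine, against 476, 439.8 and 50.5 CPM in spleen (edgeR adjusted p = 1 without and 0.0199 with the block). Ccl4 had 8545, 3104 and 861 CPM in small intestine, against 1509, 1168 and 157 CPM in spleen (edgeR adjusted p = 1 without and 0.00863 with the block). Tnf did not pass in either fit, with 141, 103 and 142 CPM in small intestine, against 17, 36.1 and 20.6 CPM in spleen (2.39 ± 0.49, edgeR adjusted p = 0.0773 without and 0.0604 with the block).

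**Figure D3:**
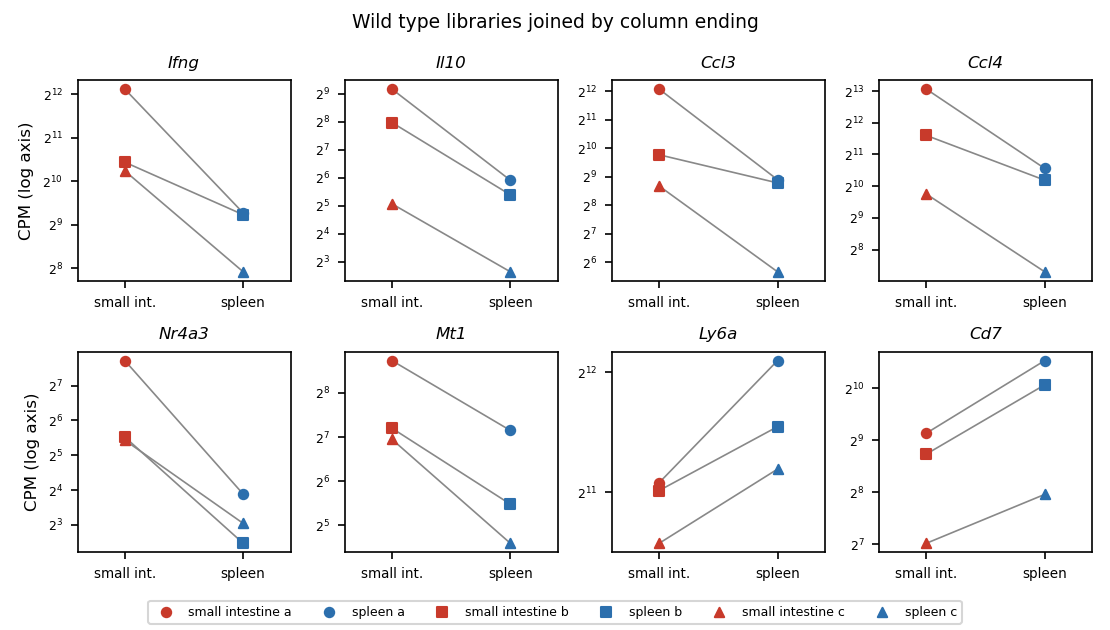
CPM (log axis, base 2) of 8 genes called with the column ending as a block but not without it, in small intestine and spleen, with a line joining the libraries of 1 ending (circles a, squares b, triangles c). The lines fall towards spleen in the first 6 panels and climb towards spleen for Ly6a and Cd7, while the points of the organs overlap for Il10, Ccl3, Ccl4, Mt1 and Cd7.

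Within the lists, the block added members to families that already had calls. The other NR4A receptors joined Nr4a1: Nr4a2 had 153, 121 and 120.3 CPM in small intestine, against 8.75, 30.2 and 4.68 CPM in spleen (3.17 ± 0.74, edgeR adjusted p = 0.159 without and 0.0199 with the block). Nr4a3 had 210.4, 46 and 43.2 CPM in small intestine, against 14.8, 5.56 and 8.26 CPM in spleen (3.39 ± 0.79, 0.159 and 0.00115). Dusp1, which inactivates p38 and JNK, had 1342, 866 and 907 CPM in small intestine, against 76.6, 269 and 48.1 CPM in spleen (2.98 ± 0.67, 0.137 and 0.0388). None of these 3 genes had overlapping libraries. Nfkbia, the classical I kappa B alpha, had 946, 940.0 and 1235 CPM in small intestine, against 285, 453 and 283 CPM in spleen (1.61 ± 0.35, 0.0965 and 0.0372). Rgs16, a further G protein regulator, had 60.7, 55 and 28.5 CPM in small intestine, against 1.75, 6.7 and 1.14 CPM in spleen (3.91 ± 0.84, 0.0965 and 0.0199). The heat shock list reached 5 of 18 with Hspa1a, Dnajb4 and Hsp90aa1, the cytosolic HSP90. Hsp90aa1 had 2112, 2200.2 and 2145 CPM in small intestine, against 874, 1064 and 917 CPM in spleen (1.18 ± 0.23, 0.0522 and 0.00406). The mRNA decay list, without a call otherwise, had 3 of 12 with the block (median 1.03), Btg2, Tob2 and Zfp36l1. Zfp36l1, which destabilises AU-rich messengers, had 177, 54.8 and 86 CPM in small intestine, against 47.8, 26.2 and 36.5 CPM in spleen (1.53 ± 0.45, 0.532 and 0.025).

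Cxcr4, the receptor for CXCL12, was the only gut homing list member called with the block, with 56.2, 12 and 24.7 CPM in small intestine, against 10.4, 3.43 and 4.09 CPM in spleen (2.38 ± 0.69, edgeR adjusted p = 0.471 without and 0.0279 with the block). Amino acid transporter genes were also among the 61. Slc7a1 had 44.1, 34.9 and 43.7 CPM in small intestine, against 9.9, 13.6 and 13.7 CPM in spleen (1.72 ± 0.35, 0.0724 and 0.0432). Slc38a2 had 460.1, 267 and 322 CPM in small intestine, against 156, 132 and 80.7 CPM in spleen (1.51 ± 0.32, 0.0896 and 0.00209). Slc3a2, the heavy chain shared by several transporters, had 288, 263 and 265 CPM in small intestine, against 80, 130.0 and 83.3 CPM in spleen (1.48 ± 0.35, 0.167 and 0.0492). All 3 transporters had separate organ groups. Mt1, a metal-binding metallothionein, had 424, 147 and 123 CPM in small intestine, against 142, 44.7 and 24.2 CPM in spleen (1.72 ± 1.00, edgeR adjusted p = 1 without and 0.00411 with the block).

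The 3 genes lower in small intestine with the block were Ly6a, Cd7 and Hba-a2. Ly6a, the activation antigen Sca-1, had 2167, 2071 and 1528 CPM in small intestine, against 4383, 2994 and 2343 CPM in spleen (-0.75 ± 0.30, edgeR adjusted p = 1 without and 0.0199 with the block). Cd7, an immunoglobulin superfamily receptor of T and NK cells, had 561, 425 and 129.6 CPM in small intestine, against 1474, 1068 and 248 CPM in spleen (-1.32 ± 0.80, 1 and 0.0314). Small intestine a and b lay above spleen c for Cd7, so the groups overlapped. Hba-a2 encodes the alpha chain of haemoglobin, and reads can be split with its near-identical copy Hba-a1. It had 3.33, 0.325 and 1.61 CPM in small intestine, against 792, 1120.1 and 150.1 CPM in spleen (-8.62 ± 1.72, edgeR adjusted p = 0.0627 without and 0.0314 with the block).

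T helper and cytotoxic lists held few calls. Over 18 Th1 genes the median log2 fold change was 0.08, with Bhlhe40 as the 1 call, and Tbx21, the master factor of Th1 cells, had 18.7, 16.5 and 44.1 CPM in small intestine, against 9.95, 17.5 and 32 CPM in spleen (0.41 ± 0.73, edgeR adjusted p = 1). Over 18 Th17 genes the median was 0.29, with Irf4 as the 1 call. Il17a stood out only in small intestine library c, with 0, 0.758 and 28.4 CPM in small intestine, against 0, 0 and 0.211 CPM in spleen (edgeR adjusted p = 1). Foxp3, the regulatory T cell factor, had 0, 0.794 and 7.1 CPM in small intestine, against 0, 0.164 and 4.26 CPM in spleen. For Tbx21 and Foxp3 library c was the highest in both organs. Among 20 cytotoxic genes none passed (median 0.16). Gzmb, granzyme B, had 800.5, 1280.3 and 813 CPM in small intestine, against 1302, 1247 and 390.4 CPM in spleen (-0.02 ± 0.45, edgeR adjusted p = 1). Gzma had 107, 92 and 301 CPM in small intestine, against 102, 69.2 and 345 CPM in spleen (-0.05 ± 0.76, edgeR adjusted p = 1).

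Cell cycle, translation and metabolism lists held 1 call. Over 28 cell cycle genes the median log2 fold change was -0.36 with 26 below 0 and no call, and Cenpa, a centromere histone, had 141, 248 and 148 CPM in small intestine, against 295, 293 and 257 CPM in spleen (-0.65 ± 0.32, edgeR adjusted p = 1). The medians were -0.07 over 32 ribosomal protein genes, 0.06 over 23 genes of the T cell receptor complex and its proximal signalling, 0.23 over 31 interferon response genes and 0.26 over 24 glycolysis and hypoxia genes, where Hilpda was the 1 call. All 13 mitochondrially encoded genes lay below 0 (median -0.38, no call). The 25 cholesterol and fatty acid genes had a median of 0.32 with 21 above 0 and no call. Of 22 drug and bile acid handling genes, the class that CAR controls in liver, 8 could be tested and none passed. Nr1i3 itself had 0, 5 and 0 counts in small intestine, against 36, 0 and 7 counts in spleen. Of the 21 tested ligand-sensing nuclear receptors none passed either.

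The same organ comparison in CAR-deficient cells uses other libraries from the same fit. Over all groups, 41 of 45 same-ending pairs of libraries correlated above 0.1 in their deviations, against 7 of 90 other pairs. These pairs include wild type with CAR-deficient libraries, so the 2 genotypes are not shown to be independent. It called 30 genes higher (0.202%) and 2 lower (0.0134%), and 21 of the 28 wild type genes were among them. All 28 had a log2 fold change above 0 there, from 1.47 to 9.72, and none of the 28 had overlapping libraries. The share of all genes without overlap was not counted for the CAR-deficient libraries. Nr4a1 had a log2 fold change of 4.99 in CAR-deficient cells (edgeR adjusted p = 0.0038), Cd69 of 3.34 (0.0139) and Tnfaip3 of 3.19 (0.00147). Gem, Ubald2, Mid1, Rgs2, Lsmem1, Rel and Irf4 passed in wild type cells and not in CAR-deficient cells. The test of the difference between the genotypes called 0 of 14876 genes (edgeR, 337 or 2.27% at an unadjusted p under 0.05, DESeq2 12, voom 0), and each of the 28 had an adjusted p of 1. Over the 7795 genes averaging 10 CPM or more in wild type small intestine or spleen, the log2 fold changes of the genotypes correlated at 0.616 across genes, which share libraries and are not independent, and over all 14876 at 0.286. The CAR-deficient small intestine library a had 196 counts of Nr1i3, the gene that should be lacking. That is also above the 0, 5 and 0 counts of wild type small intestine. Its label is unsure, and the source of these counts was not tested. CAR-deficient spleen libraries b and c held 14 counts each, within the 0 to 36 of wild type spleen, and the other 3 held 0. The CAR-deficient comparison called 15 genes without small intestine a, 19 without spleen b and 5 without spleen c.

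**Figure D4:**
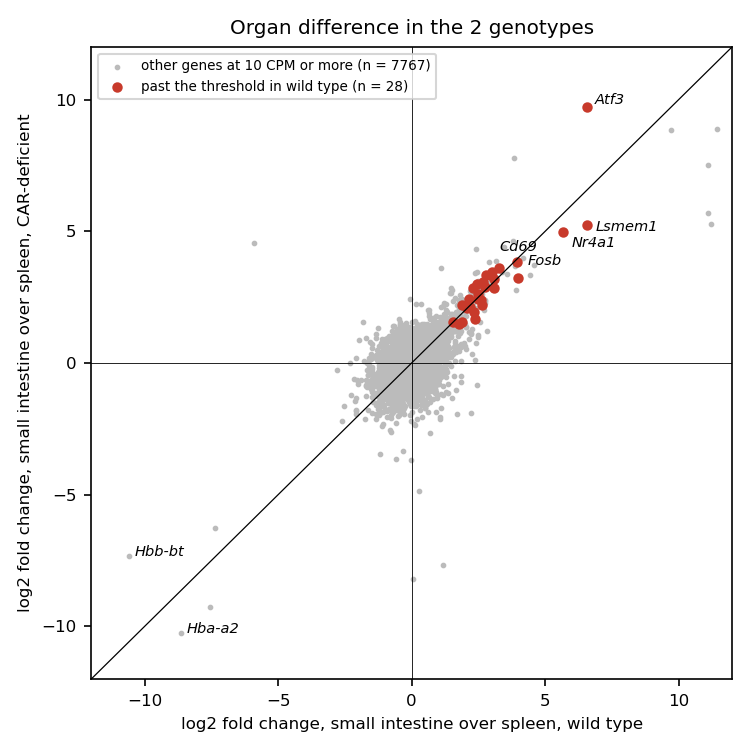
Log2 fold change of small intestine over spleen in wild type cells (horizontal axis) and in CAR-deficient cells (vertical axis), 1 point per gene averaging 10 CPM or more in wild type small intestine or spleen, with the diagonal of equal values and 1 gene outside the axes. The 28 genes past the threshold in wild type cells (red) all lie right of and above 0 and near the diagonal, with Atf3 above it.

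Wild type cells from the colon tell whether the 28 genes set small intestine apart from gut cells in general. Between small intestine and colon 0 of 14876 genes passed (edgeR, 639 or 4.3% at an unadjusted p under 0.05, DESeq2 28, voom 93, and 18 without library a of every group). For the 28 the log2 fold change of small intestine over colon ran from -1.12 to 0.96, with 18 of 28 below 0 and an adjusted p of 1 for each. Nr4a1 had 174, 130.3 and 234 CPM in small intestine, against 92.1, 121 and 189 CPM in colon (log2 fold change 0.42). Cd69 had 3907, 1188 and 2021 CPM in small intestine, against 3594, 1786 and 2983 CPM in colon (-0.23). Klf4 had the lowest value of the 28, -1.12. All 28 had colon libraries wholly above the spleen libraries, but the share of all genes for which this holds was not counted. The same spleen libraries served to call the 28, so the place of colon above them is partly set by that choice. Since small intestine libraries enter both comparisons, the values of small intestine over colon are not independent of those against spleen.

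Markers of other cell types were examined because so few cells were sorted. The T cell genes were high in each library, and Cd4 had 208, 148 and 171 CPM in small intestine, against 134, 133 and 145 CPM in spleen. Erythroid and platelet markers (11 genes) summed to 13.7, 8.59 and 22.6 CPM in small intestine, against 1748, 2432 and 359.5 CPM in spleen, and Car1 and Ppbp were at 0 in all small intestine libraries. Haemoglobin genes supplied most of the spleen sum, and Hba-a2, the 1 marker called with the block, belongs to them. Stromal, endothelial and glial markers (14 genes) summed to 392, 73.8 and 74.6 CPM in small intestine, against 84.5, 52.7 and 67.5 CPM in spleen, with Dcn, a matrix proteoglycan, at 257, 7.04 and 3.05 CPM in small intestine, against 0, 0.245 and 0.0422 CPM in spleen (edgeR adjusted p = 0.251). Myeloid markers (17 genes) summed to 241, 372 and 369 CPM in small intestine, against 186, 218 and 157 CPM in spleen, so these groups did not overlap. Of these 17 markers 12 had a log2 fold change above 0 and 5 below, with a median of 0.71. Among them Lyz2, a lysozyme, had 32.9, 119 and 71.7 CPM in small intestine, against 0, 7.44 and 2.78 CPM in spleen (4.44 ± 1.47, edgeR adjusted p = 0.725). S100a8 went the other way, with 0, 0.0722 and 0 CPM in small intestine, against 1.84, 0.899 and 0.674 CPM in spleen. Both Lyz2 and Dcn passed in the fit without library a of every group. There the log2 fold change was 4.22 for Lyz2 and 5.08 for Dcn (edgeR adjusted p = 0.0225 for each).

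Epithelial markers (21 genes) summed to 8.07, 11.1 and 25.3 CPM in small intestine, against 14.4, 10.8 and 11.0 CPM in spleen. Of these genes 8 were at 0 in all small intestine libraries, among them Krt8, Krt19, Krt20, Vil1 and Alpi. In all spleen libraries 6 were at 0, Krt20 and Alpi again among them. Of 13 tested members 5 had a log2 fold change above 0 and 8 below. The Paneth cell gene Defa24 had 1.62, 0.613 and 0.143 CPM in small intestine, against 0 in every spleen library. Lyz1, another, had 14.8 CPM in small intestine c and 0 in the other 5 libraries. Lymphoid markers of CD8, NK and innate cells (12 genes) ranged from 163 to 349 CPM in small intestine and from 162 to 280.3 CPM in spleen, and B and plasma cell markers (12 genes) from 72.2 to 347 CPM in small intestine and from 166 to 202 CPM in spleen. Both overlapped between the organs. The part of myeloid and stromal RNA in the calls was not tested. In bulk libraries, fewer cells that express a gene and less RNA per cell cannot be told apart.

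**Figure D5:**
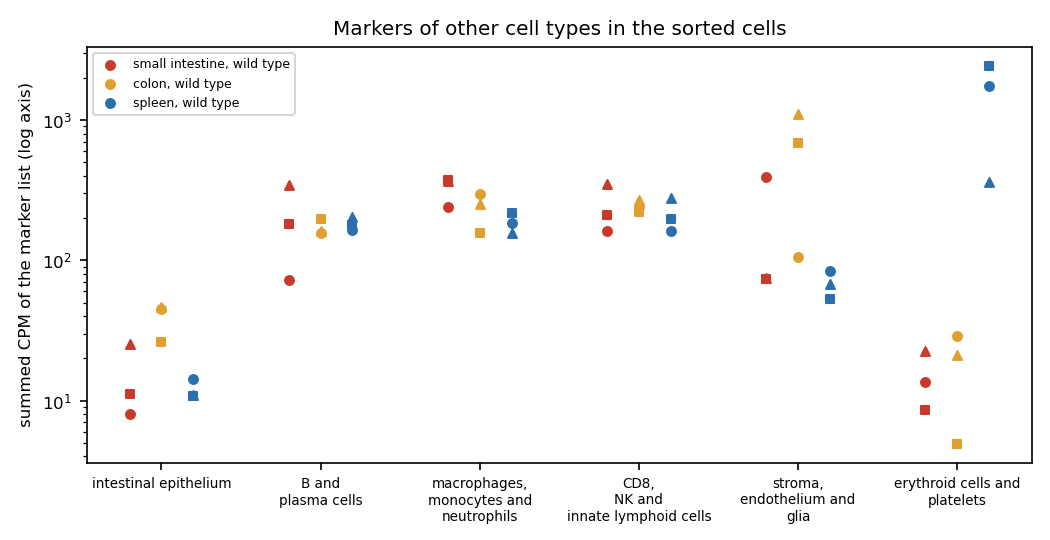
Summed CPM (log axis) of the markers of 6 other cell types, 1 point per library, in wild type small intestine (red), colon (orange) and spleen (blue), with circles, squares and triangles for libraries a, b and c. Spleen stands above both gut sites for erythroid and platelet markers, and small intestine a stands above the other small intestine libraries for stromal markers.

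Depth was even across the 6 libraries. Total estimated counts ran from 23696504 to 25436582 in small intestine and from 21345184 to 24693966 in spleen, so that 3 counts were worth 0.108 to 0.138 CPM, for counting error only. Library a stood apart in both organs. It had 15722 genes with counts in small intestine, against 15881 in spleen, and the other 4 libraries had 17013 to 18819. Mitochondrial genes took 3.73% of counts in small intestine a, against 3.97% in spleen a, and 2.23% to 3.22% in the other 4. Without library a of every group 18 genes were higher and 2 lower, and 12 of the 28 remained called. The stromal marker Dcn and the myeloid marker Lyz2 were among the 18.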

How the data were processed

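Expression was measured by RNA-seq in sorted CD4+ effector T cells, with cDNA from a SMART-Seq v4 kit and NEBNext Ultra II libraries per the labels' protocols, a chemistry not stated to keep the strand. The authors deposited, per the file headers, estimated counts per gene for 18 libraries. The submitters' processing notes name Salmon, DESeq2 and mm10, with no versions. Columns named CD45.1 negative had to be the CAR-deficient ones by elimination. The other 37 columns (per-length abundances, effective lengths and import settings) were not used.

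All 34162 gene identifiers matched GENCODE vM21 (GRCm38), which gives the gene coordinates. Estimated counts were rounded, filtered with filterByExpr (14876 genes left), scaled by TMM and fitted in edgeR 4.0.16 (R 4.3.3) as 6 group means over 18 libraries (biological coefficient of variation 0.791). Contrasts were tested two-sided by quasi-likelihood with Benjamini-Hochberg adjustment and a threshold of 0.05. Standard errors are log2 fold changes divided by the root of F, and levels are CPM on TMM-scaled sizes. Beside values from the block fit, the log2 fold change and its error are those without the block. Column endings were taken as pairs because all 3 same-ending correlations exceeded 0.1. limma 3.58.1 and DESeq2 1.42.0 served as alternatives, and the procedure was tested on simulated data.

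Named genes were the 12 with the largest change per direction (no overlap, mean of at least 10 CPM), up to 4 called members per list, or the 1 with the smallest p, up to 5 per direction in the further comparisons, or the 3 with the smallest p, and a fixed set. The other called genes, Egr1, Areg and those found with the block were named after their values were seen, and a few genes of the rule are not reported here. The members and all 37 lists were chosen with earlier results of these data known. Promoters are from RefSeq (GRCm38.p6).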

Additional observations from a re-analysis of the deposited data

Results flagged for a closer look

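In 3 named genes every pair of small intestine and spleen libraries with the same column ending moved one way in wild type cells and the other way in CAR-deficient cells. Exd2, an exonuclease gene, had a log2 fold change of small intestine over spleen of 0.85 in wild type cells and -0.74 in CAR-deficient cells, a difference of 1.59. Its wild type levels were 25.1, 22.8 and 24.6 CPM in small intestine, against 9.53, 17 and 13.5 CPM in spleen, and its CAR-deficient levels were 13.9, 14.8 and 12.4 CPM in small intestine, against 28.1, 17.7 and 22.6 CPM in spleen. Cxcr6, the chemokine receptor gene, had -0.42 in wild type cells and 0.56 in CAR-deficient cells, a difference of -0.98. Itga4, an integrin chain gene, had 0.11 in wild type cells and -0.26 in CAR-deficient cells, a difference of 0.37. Its wild type b libraries were all but equal, at 279.3 CPM in small intestine and 279.25 CPM in spleen. The share of all genes with such opposite pairs was not counted. In edgeR's test of the difference the adjusted p was 1 for each of the 3. Exd2 was named because it had one of the smallest p-values for that difference.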

How the results depend on the processing

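The 28 wild type calls (small intestine over spleen) became 139 by DESeq2's Wald test, 105 by limma's voom with quality weights, 64 with the column ending as replicate block, and 0 with only the compared groups in the fit, with or without that block (961 genes at an unadjusted p under 0.05 with it). Leaving out 1 library gave 3 to 15. The block with only the compared groups was chosen after seeing the data. DESeq2's size factors (23), a robust fit (23), no filter on low counts (42), a stricter filter (42) and leaving out library a of every group (20) stayed within 1.5 times the count. The 32 CAR-deficient calls became 219 by DESeq2, 57 by voom, 62 with the stricter filter, 77 with the block, 0 with only the compared groups, 19 without library a of every group, and 5 to 28 when 1 library was left out. The 0 calls between genotypes became 12 by DESeq2. The 0 calls against colon became 28 by DESeq2, 93 by voom and 18 without library a of every group. The cause of these shifts was not tested. Over the named genes and alternatives, 939 log2 fold changes kept direction and side of the threshold, 161 fell below it, 31 passed it and 29 changed sign, while 563 list medians stayed within the spread and 29 did not. None of the sign changes was in a called gene. They were as follows. With voom, Cops8 had -0.0076, Lmna -0.20 and Gzmb 0.60. Without library a of every group, Cops8 had -0.041, Il7r 0.043 and Gzmb 0.36. With the stricter filter Gzmb had 0.024. With the block, Gzma had 0.032 and Gzmb 0.10, and in the block fit of only the compared groups Gzma had 0.091 and Gzmb 0.13. Leaving out 1 library gave -0.51 to 0.35 for Itgb7, -0.89 to 0.20 for S1pr1, -1.91 to 1.29 for Ccr7, -1.48 to 0.44 for Il7r, -1.87 to 4.89 for Foxp3, -0.18 to 0.94 for Tbx21, -0.80 to 0.96 for Gzma, -0.41 to 0.26 for Gzmb and -0.43 to 4.09 for Ahr. With 3 libraries a side, an exact permutation test of 1 gene could not go below p = 0.1.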

Other observations

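Several further lists held at most 2 calls each. Among 18 coinhibitory and IL-10 genes (median log2 fold change 0.31, 15 above 0) Ctla4 was the 1 call. Among 17 regulatory T cell genes (14 above 0) it was again Ctla4. Areg, the tissue repair growth factor amphiregulin, did not pass, with 18.2, 22.3 and 26.1 CPM in small intestine, against 1.11, 3.76 and 1.1 CPM in spleen (3.48 ± 0.93, edgeR adjusted p = 0.322), and the organs were apart. Of 17 genes of common gamma chain receptors and their feedback none passed (median 0.37). Socs3, an inhibitor of cytokine receptors, had 17.6, 18.3 and 18.2 CPM in small intestine, against 3.73, 8.75 and 5.77 CPM in spleen (1.56 ± 0.49, edgeR adjusted p = 0.618), nearly the same level in the 3 small intestine libraries. Of 22 genes of the TNF superfamily, the BCL2 family and Fas none passed (median 0.30). Pmaip1, which encodes the death factor NOXA, had 63.5, 100.4 and 76.2 CPM in small intestine, against 12.6, 44.5 and 27 CPM in spleen (1.51 ± 0.38, edgeR adjusted p = 0.224).

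Among 11 tested targets of the aryl hydrocarbon receptor and of retinoic acid none passed (median 0.33). Tiparp, a target of the aryl hydrocarbon receptor, had 73.9, 57.6 and 81.6 CPM in small intestine, against 25.7, 33.8 and 17.6 CPM in spleen (1.47 ± 0.33, edgeR adjusted p = 0.137), with no overlap. Ahr, the receptor itself, had 0.18, 5.09 and 33.4 CPM in small intestine, against 0.23, 1.27 and 9.15 CPM in spleen (1.86 ± 1.98, edgeR adjusted p = 1), and in both organs library c was the highest and library a the lowest. Of 19 stress response genes of the endoplasmic reticulum Atf3 was the 1 call (median 0.25). Dnajb9, a chaperone of that compartment that passed with the block alone, had 218, 73.9 and 60.5 CPM in small intestine, against 48.9, 33.2 and 19 CPM in spleen (1.80 ± 0.66, edgeR adjusted p = 0.967 without and 0.00833 with the block). Among 21 Kruppel-like and Foxo axis genes Klf4 and Klf6 were the 2 calls, while the median was -0.14 with 12 of 21 below 0. Of 22 antioxidant genes none passed without the block (median 0.09).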
